A study of Homo sapiens with 12 samples.

Results

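RNA levels of 10 metalloprotease and inhibitor genes were examined in 2 human liver cancer cell lines after knockdown of the long noncoding RNA FASRL. The genes were MMP3, MMP1, MMP10, MMP14, MMP15, ADAM9, ADAM10, ADAM17, TIMP1 and TIMP2. They were chosen by family and selected on measured values, because the rise of MMP3 in HepG2 and the fall of ADAM9 in LM3 entered the choice. Of the 10 genes, 8 were among the listed genes of the series, and MMP10 and ADAM17 were not analysed here. Since the choice used the knockdown values, these values are given for the 8 genes as a description with no test. The comparison of LM3 with HepG2 under control siRNA was not part of the choice and was tested.

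HepG2 and LM3 are established lines from human liver tumors. Each line was transfected with an siRNA against FASRL (siFASRL) or with a negative control siRNA (siNC), with RNAiMAX as the reagent, and RNA was taken 48 h later. RNA-seq was done on 3 replicates of each of the 4 groups, which gave 12 libraries. FASRL itself is not among the listed genes, so its level cannot be read from these values. The values are the authors' normalized expression values from RSEM, and whether they are FPKM or TPM is not stated. Both of these units are per transcript length, so levels of different genes are set side by side on that scale. The listed values summed to between 316534 and 355094 per library, and the sequencing depth is unknown.

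Matrix metalloproteinases (MMPs) are zinc-dependent proteases that cut collagens, proteoglycans and other proteins of the extracellular matrix. Most are made as inactive precursors, some of which are secreted and others of which are held in the membrane. The ADAM family contains membrane proteases that release the outer parts of growth factors, receptors and adhesion proteins from the cell surface, a step called shedding. Tissue inhibitors of metalloproteinases (TIMPs) bind and block the active enzymes, and TIMP2 also takes part in the activation of pro-MMP2 by MMP14. In the liver these proteins are known for their part in matrix turnover during fibrosis and tumor invasion.

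The labelled cell type was compared with its markers. Of 9 hepatocyte markers, 8 were listed. In HepG2 their values summed to 4049.28, 3973.97 and 3664.32 in the siNC replicates, with SERPINA1 the most abundant. The same sum was 1826.87, 1734.68 and 1782.80 in the HepG2 siFASRL replicates. In LM3 it was 14.62, 17.84 and 16.98 under siNC and 7.25, 7.69 and 6.24 under siFASRL, with between 80.7% and 99.3% of it from HNF4A. ALB, AFP, APOA1, APOB, TF and TTR stayed under 1 in every LM3 library and SERPINA1 reached at most 1.73, so hepatocyte markers other than HNF4A were near 0 in that line.

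Markers of other cell types also differed between groups. Of 8 fibroblast and stellate markers, 6 were listed, and their sum in HepG2 was 81.18, 82.93 and 81.90 under siNC and 54.21, 48.20 and 50.87 under siFASRL. The most abundant of them was COL3A1 under siNC and ACTA2 under siFASRL. ACTA2 went against the sum, with a mean of 10.7 under siNC and 17.4 under siFASRL without overlap, while the other 5 were lower. In LM3 the sum was 15.65, 14.64 and 13.56 under siNC and 5.06, 6.0 and 5.28 under siFASRL, led by COL1A1, and DCN and LUM were listed at 0 in all 3 siFASRL replicates. Of 6 immune markers, CD68 and LYZ were listed, with a sum of 126.62, 123.08 and 121.65 in HepG2 siNC and 96.96, 87.24 and 88.82 in HepG2 siFASRL. LYZ was the more abundant in all HepG2 libraries but siFASRL replicate 1, where CD68 was. LYZ had means of 82.7 and 46.1, whereas CD68 had means of 41.1 and 44.9 and overlapped, so the lower sum came from LYZ. In LM3 that sum was 18.19, 15.10 and 16.19 under siNC and 18.43, 18.49 and 19.03 under siFASRL, with CD68 the most abundant. VWF, listed out of 4 endothelial markers, did not pass 0.35 in any library. The hepatocyte and fibroblast sums were thus lower after knockdown in both lines, and their part in the results on metalloprotease genes was not tested. Each library came from a culture of HepG2 or of LM3, so these sums give RNA levels of marker genes in that line. They do not show that other cell types were present, and bulk values do not show how the RNA was spread over the cells.

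MMP3, or stromelysin-1, is a secreted protease that cuts proteoglycans and activates other MMP precursors. In HepG2 its value was 0.33, 0.40 and 0.36 in the siNC replicates and 20.79, 21.18 and 19.14 in the siFASRL replicates. In LM3 it was 0.00, 0.05 and 0.00 under siNC and listed at 0 in all 3 siFASRL replicates. Only the 3 HepG2 siFASRL libraries thus held MMP3 at a level above 1. The mean in HepG2 went from 0.363 ± 0.0351 to 20.4 ± 1.08 (SD, n = 3), a ratio of means of 56.1. On the log2(value + 1) scale, which understates the change of low genes, the difference was 3.97 (SE 0.059). In HepG2, 3.45% of the listed genes had a lower mean than MMP3 under siNC and 66.8% under siFASRL.

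MMP1, the interstitial collagenase, is secreted and cuts fibrillar collagens. Its HepG2 values were 0.10, 0.11 and 0.03 under siNC and 1.76, 1.73 and 1.18 under siFASRL. In LM3 they were 0.03, 0.00 and 0.00 under siNC and 0.00, 0.00 and 0.02 under siFASRL. The HepG2 groups did not overlap, and the LM3 groups lay together near 0. The difference in HepG2 was 1.24 (SE 0.091) on the log2(value + 1) scale, and it became 3.21 with a pseudocount of 0.1. Both MMP1 and MMP3 reached the low value filter, at least 1 in at least 3 libraries, only through HepG2 siFASRL, so they had to differ there. In LM3 neither passed the filter, and no fold change is given.

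Both secreted MMPs lie in a cluster on the minus strand of chromosome 11, where MMP10 also lies. In the RefSeq gene table (GRCh38.p14) MMP10 spans chr11:102770502-102780628, MMP1 chr11:102789919-102798160 and MMP3 chr11:102835801-102843609. The gene IDs are 4319, 4312 and 4314, in the same order. MMP10, or stromelysin-2, has no value here, so the pattern of the cluster could be read only from MMP1 and MMP3.

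MMP14 (gene ID 4323, chr14:22836585-22847758), also called MT1-MMP, is a membrane-anchored protease that cuts collagen and activates pro-MMP2 at the cell surface. Its HepG2 values were 2.08, 2.56 and 2.35 under siNC and 5.53, 5.46 and 5.06 under siFASRL. In LM3 they were 0.04, 0.15 and 0.09 under siNC and 0.13, 0.05 and 0.04 under siFASRL. MMP14 was thus higher in every HepG2 siFASRL replicate than in every HepG2 siNC replicate, and it was near 0 in LM3 under both siRNAs. The HepG2 means were 2.33 and 5.35, a ratio of 2.30, and the difference was 0.93 (SE 0.068) on the log2(value + 1) scale.

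MMP15 (gene ID 4324, chr16:58025754-58046901), or MT2-MMP, is a close relative of MMP14 in the membrane. Its HepG2 values were 17.92, 21.61 and 17.02 under siNC and 9.15, 9.82 and 10.28 under siFASRL. In LM3 they were 1.96, 2.78 and 2.46 under siNC and 0.53, 0.37 and 0.62 under siFASRL. In each line every siFASRL value of MMP15 was below every siNC value, and in HepG2 it differed in the opposite direction to MMP14. In LM3 MMP15 passed the filter only through siNC, so there it had to differ, and without LM3 siNC replicate 1, 2 or 3 it did not pass. The differences were -0.88 (SE 0.087) in HepG2 and -1.17 (SE 0.098) in LM3 on the log2(value + 1) scale. The LM3 difference was -2.05 with a pseudocount of 0.1 and -0.69 under quantile normalization. After knockdown the mean stood at 51.7% of control in HepG2 and at 21.1% in LM3.

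The 250 bases before the transcription start of MMP14, MMP15 and TIMP1 are shown from RefSeq (GRCh38.p14), because in HepG2 the first and the last of these genes were higher and MMP15 was lower after knockdown. The promoter table held 4 of the 8 listed genes, and MMP3, MMP1, ADAM9 and TIMP2 had no entry. The entry of MMP10, a gene without values here, held none of the motifs searched. Capitals mark matches to AGGAAG or CTTCCT (ETS) and to GGGCGG or CCGCCC (GC box), searched on both strands. The stretches are chr14:22836335-22836584 on the plus strand for MMP14, chr16:58025504-58025753 on the plus strand for MMP15 and chrX:47582186-47582435 on the plus strand for TIMP1.
MMP14: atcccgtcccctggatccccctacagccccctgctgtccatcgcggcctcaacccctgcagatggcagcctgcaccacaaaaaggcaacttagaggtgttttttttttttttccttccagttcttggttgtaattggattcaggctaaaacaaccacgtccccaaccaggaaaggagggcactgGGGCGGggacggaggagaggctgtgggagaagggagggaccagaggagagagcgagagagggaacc
MMP15: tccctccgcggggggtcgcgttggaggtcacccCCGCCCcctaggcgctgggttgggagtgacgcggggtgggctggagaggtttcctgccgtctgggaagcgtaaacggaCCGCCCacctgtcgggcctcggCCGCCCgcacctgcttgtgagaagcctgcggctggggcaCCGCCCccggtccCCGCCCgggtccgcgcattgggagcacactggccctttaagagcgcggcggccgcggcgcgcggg
TIMP1: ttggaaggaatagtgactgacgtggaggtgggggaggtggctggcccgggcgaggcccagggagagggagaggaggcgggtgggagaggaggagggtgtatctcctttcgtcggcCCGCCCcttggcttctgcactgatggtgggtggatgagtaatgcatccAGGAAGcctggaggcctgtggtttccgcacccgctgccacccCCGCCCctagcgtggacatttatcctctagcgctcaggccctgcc
MMP14 held 1 GC box, 66 bases before the start, and MMP15 held 5. The entry of ADAM10, which was also lower in HepG2, held 1 GC box and 2 ETS matches. TIMP1 held 2 GC boxes and 1 ETS match, 87 bases before the start. No marked matches overlapped, and none of the 3 stretches held TGAGTCA or TGACTCA (AP-1). Only these exact letters were searched, so a site that differs from them, such as TGAGTAA in the TIMP1 stretch, was not counted. Among 27305 promoters of the same length, 42.3% held a GC box, 28.7% an ETS match and 4.16% an AP-1 match. Among 7111 promoters of listed genes the shares were 66.6%, 27.6% and 2.8%, so a GC box is common in the set these genes come from. A match describes only these letters and is not evidence of binding.

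**Figure D1:**
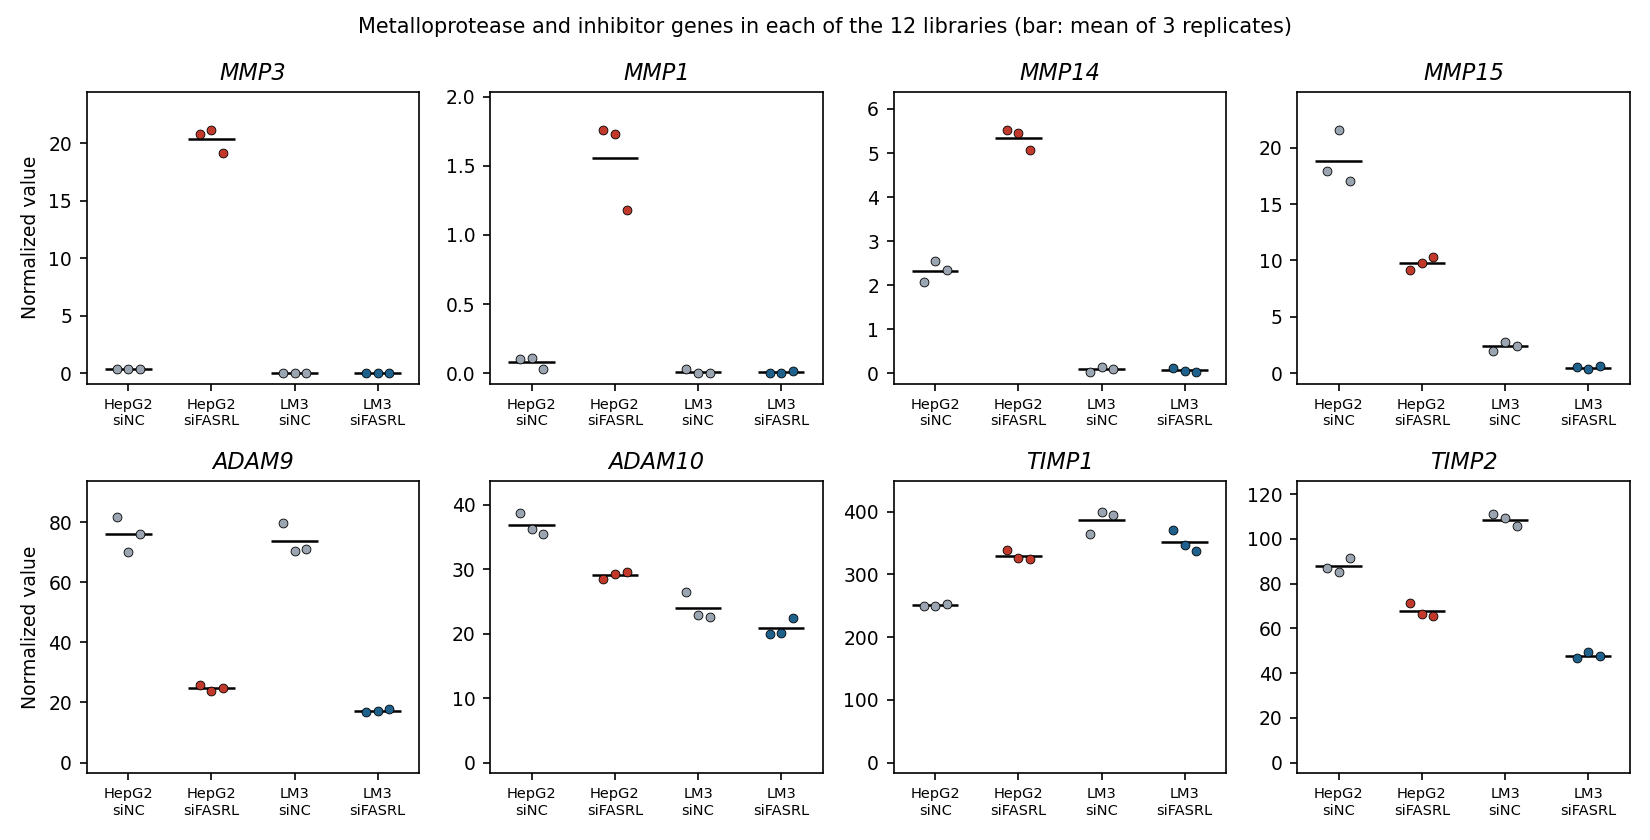
Normalized expression value (vertical axis, linear) of each of the 8 listed genes in the 12 libraries, with siNC in gray, HepG2 siFASRL in red, LM3 siFASRL in blue and the mean of 3 replicates as a bar. MMP3 stands between 19.14 and 21.18 in HepG2 siFASRL and at or under 0.40 in all other libraries, and ADAM9 is lower in the siFASRL groups of both lines.

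ADAM9 (gene ID 8754, chr8:38996973-39105261) is a membrane protease with shedding activity. In HepG2 it had values of 81.91, 70.01 and 76.22 under siNC and 25.88, 23.99 and 24.86 under siFASRL. In LM3 the values were 79.94, 70.45 and 71.04 under siNC and 16.82, 17.10 and 17.93 under siFASRL. ADAM9 was therefore at a similar level in both lines under siNC and lower in every siFASRL library. Its mean after knockdown was 32.8% of control in HepG2 and 23.4% in LM3. The differences were -1.57 (SE 0.069) in HepG2 and -2.03 (SE 0.063) in LM3 on the log2(value + 1) scale.

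ADAM10 (gene ID 102, chr15:58588809-58749707) is a sheddase that cuts Notch receptors and cadherins. Its HepG2 values were 38.73, 36.18 and 35.47 under siNC and 28.50, 29.22 and 29.59 under siFASRL. In LM3 they were 26.39, 22.89 and 22.52 under siNC and 20.01, 20.09 and 22.48 under siFASRL. The groups did not overlap in either line, but in LM3 the highest siFASRL value, 22.48, lay next to the lowest siNC value, 22.52. The siFASRL means were 79.1% of siNC in HepG2 and 87.2% in LM3, with differences of -0.33 (SE 0.057) and -0.19 (SE 0.075) on the log2(value + 1) scale. The LM3 difference was -0.09 with median-of-ratios scaling and -0.12 without LM3 siNC replicate 1. ADAM10 thus differed less than ADAM9 in both lines.

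TIMP1 (gene ID 7076, chrX:47582436-47586789), a secreted inhibitor of most MMPs, was the most abundant of the 8 genes in all 4 groups. In HepG2 its values were 249.88, 250.35 and 252.26 under siNC and 338.71, 326.91 and 324.26 under siFASRL. In LM3 they were 364.42, 400.29 and 394.65 under siNC and 371.45, 346.60 and 338.09 under siFASRL. TIMP1 was higher after knockdown in HepG2, with a ratio of means of 1.32, whereas the LM3 groups overlapped. The differences were 0.39 (SE 0.052) in HepG2 and -0.13 (SE 0.061) in LM3 on the log2(value + 1) scale. The LM3 difference was -0.03 with median-of-ratios scaling and -0.26 under quantile normalization.

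TIMP2 (gene ID 7077, chr17:78852977-78925387) inhibits MMPs and links MMP14 to pro-MMP2. Its HepG2 values were 87.06, 85.30 and 91.40 under siNC and 71.23, 66.65 and 65.39 under siFASRL. In LM3 they were 111.15, 109.29 and 105.62 under siNC and 46.77, 49.27 and 47.56 under siFASRL. TIMP2 was lower after knockdown in all libraries of both lines, at 77.1% of the control mean in HepG2 and 44.0% in LM3. The differences were -0.37 (SE 0.059) and -1.17 (SE 0.050) on the log2(value + 1) scale. The inhibitors thus diverged in HepG2, where TIMP1 was higher and TIMP2 lower.

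**Figure D2:**
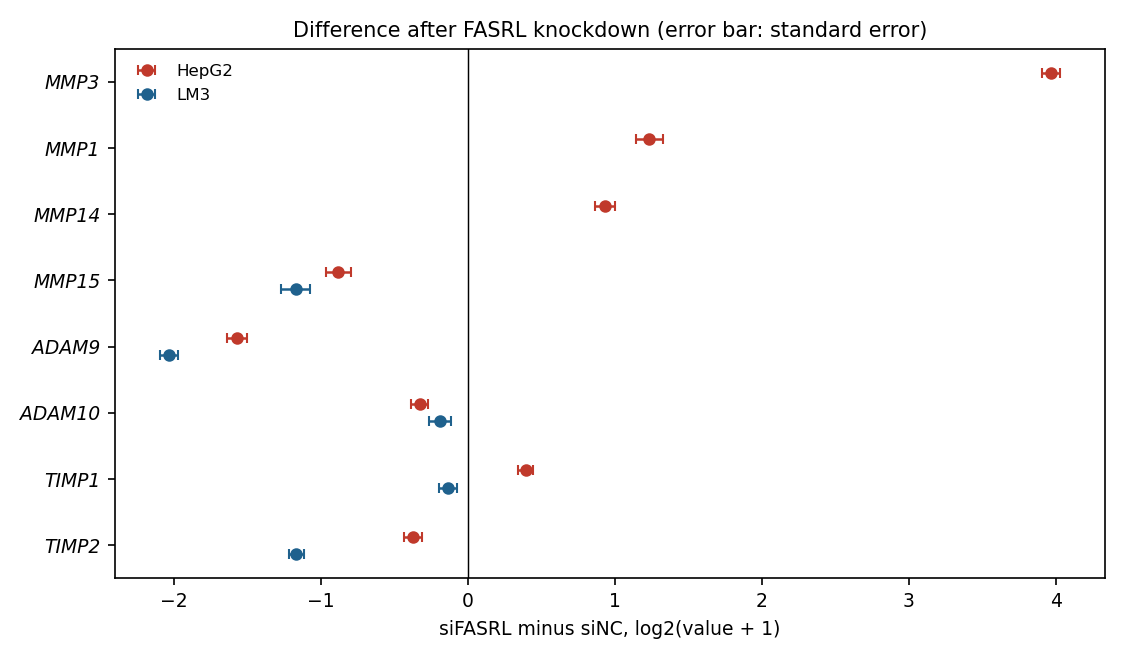
Difference of siFASRL from siNC on the log2(value + 1) scale (horizontal axis) for each listed gene in HepG2 (red) and LM3 (blue), with standard errors from 3 replicates a group. MMP3, MMP1, MMP14 and TIMP1 lie right of 0 in HepG2, and MMP3, MMP1 and MMP14 have no LM3 point because their values there did not pass the low value filter.

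In HepG2 the siFASRL and siNC values of 8 of the 8 listed genes did not overlap, beside 89.6% of all genes that passed the filter (7295 of 8144). In LM3 5 of the 8 passed the filter and 4 of them did not overlap, beside 80.1% of all genes (5996 of 7483), and MMP15, among the 4, could not overlap because of the filter. These shares are given as background, and nothing is read from them, because the genes were selected on the same values. The LM3 difference minus the HepG2 difference was -3.99 (SE 0.069) for MMP3, -1.24 (SE 0.11) for MMP1 and -0.96 (SE 0.090) for MMP14, all genes near 0 in LM3. It was -0.80 (SE 0.071) for TIMP2, -0.53 (SE 0.073) for TIMP1 and -0.46 (SE 0.094) for ADAM9. For MMP15 it was -0.29 (SE 0.14) and turned to 0.19 under quantile normalization, while it was -1.11 with a pseudocount of 0.1. For ADAM10 it was 0.14 (SE 0.094), and 0.21 without LM3 siNC replicate 1 and 0.09 without LM3 siFASRL replicate 3. Quantile normalization gave -0.24 for ADAM9 and 0.24 for ADAM10, and the pseudocount of 0.1 gave -3.25 for MMP1.

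The order of the levels differed between groups. In HepG2 siNC it was TIMP1, TIMP2, ADAM9, ADAM10, MMP15, MMP14, MMP3 and MMP1, and the ranges of neighbors did not overlap. In HepG2 siFASRL the order was TIMP1, TIMP2, ADAM10, ADAM9, MMP3, MMP15, MMP14 and MMP1, so ADAM10 stood above ADAM9 and MMP3 above the membrane MMPs. In LM3 siNC it was TIMP1, TIMP2, ADAM9, ADAM10 and MMP15, followed by MMP14, MMP3 and MMP1, which overlapped near 0. In LM3 siFASRL ADAM10 again stood above ADAM9, with means of 20.9 and 17.3.

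Control cells of the lines were compared to ask how their metalloprotease levels differed without knockdown. MMP14 and MMP15 were lower in LM3 than in HepG2, TIMP1 and TIMP2 were somewhat higher, and ADAM9 was close to equal in its mean. Of the 8 listed genes, 6 passed the filter, and 2 passed the threshold, an adjusted p under 0.05 together with a change of 1 or more in log2 units, both of them lower in LM3. Over all genes tested, 15.6% were lower in LM3 (1278 of 8176) and 7.74% higher (633). For MMP15 the log2 fold change was -2.55 (SE 0.11, limma adjusted p = 1.52e-07), and for MMP14 it was -1.61 (SE 0.071, limma adjusted p = 1.55e-07). In both genes 3 of 3 LM3 libraries lay below all HepG2 libraries. MMP14 passed the filter only through HepG2 and so had to differ, and its fold change was -0.86 under quantile normalization, short of the threshold. Without HepG2 siNC replicate 1, 2 or 3, too few libraries with MMP14 above 1 remained for it to be tested, and 1 of the genes, MMP15, was past the threshold. Quantile normalization moved the median log2 fold change of all genes from 0.0027 to 0.17 and gave 964 genes higher and 1034 lower.

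The other 4 genes that passed the filter were short of a log2 fold change of 1. An adjusted p under 0.05 alone was met by 6618 of all 8176 genes tested between the lines, so meeting it does not set these genes apart. The share of all genes without overlap is not given for this comparison, and nothing is read from the missing overlap. ADAM10 was lower in LM3 by a log2 fold change of -0.60 (SE 0.074, limma adjusted p = 8.85e-05), in 3 of 3 libraries. TIMP1 and TIMP2 had log2 fold changes of 0.62 (SE 0.057, limma adjusted p = 1.37e-05) and 0.30 (SE 0.055, limma adjusted p = 0.000948), with all 3 LM3 libraries above the HepG2 libraries. For ADAM9 it was -0.04 (SE 0.078, limma adjusted p = 0.631), so a difference was not detected, and the groups overlapped. MMP3 and MMP1 did not pass the filter, with siNC values of at most 0.40 in either line. Of 72 listed genes from fixed lists of related genes, 65 were tested between the lines, 7 were higher in LM3 and 21 lower, with a median log2 fold change of -0.33. Of these, 1 of the 7 and 12 of the 21 reached a value of 1 in a single line and had to differ. The siNC libraries of this comparison are the same as those of the knockdown comparisons, and line cannot be told apart from anything done line by line.

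Whole families were then summed over the listed genes. The sum of 10 listed MMP genes was 34.3 ± 3.57 in HepG2 siNC and 42.7 ± 0.936 in HepG2 siFASRL (SD, n = 3). MMP15 made up 54.9% of the HepG2 siNC sum, and MMP3 made up 47.7% of the HepG2 siFASRL sum and 1.06% before. In LM3 the sum was 27.8 ± 3.18 under siNC and 21.7 ± 0.888 under siFASRL (SD, n = 3). There MMP17, an MMP held in the membrane by a lipid anchor, gave 64.5% under siNC and 46.9% under siFASRL, and MMP24, a transmembrane MMP, went from 9.74% to 42.8%. The higher HepG2 sum and its new leading gene come from MMP3, whose values entered the choice of the genes. Without MMP3 the other 9 summed to 33.9 ± 3.54 in HepG2 siNC and 22.3 ± 0.573 in HepG2 siFASRL (SD, n = 3). In LM3 membrane MMPs led in both groups.

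The sum of 9 listed ADAM genes was 154 ± 4.29 in HepG2 siNC and 104 ± 2.48 in HepG2 siFASRL, and 128 ± 3.14 and 72.3 ± 1.98 in LM3 (SD, n = 3). ADAM9 was the most abundant listed ADAM under siNC in both lines, with 49.3% of the sum in HepG2 and 57.4% in LM3. After knockdown ADAM15 led, with 40.6% in HepG2 and 46.0% in LM3, and ADAM9 came after ADAM10 with 24.0% and 23.9%. The lower sums come from ADAM9, whose values entered the choice of the genes. Without it the other 8 summed to 78.0 ± 3.11 and 78.9 ± 3.41 in HepG2, and to 54.6 ± 2.21 and 55.0 ± 1.40 in LM3, under siNC and siFASRL (SD, n = 3), and the groups overlapped in both lines. In HepG2 the means of ADAM10 and ADAM15 also changed order, from 36.8 and 32.9 under siNC to 29.1 and 42.2 under siFASRL. Their siNC ranges overlapped, and in HepG2 siNC replicate 2 ADAM15 was the higher, at 36.92 against 36.18. By the means, the lead of ADAM15 there thus does not come from ADAM9 alone. In LM3 the mean of ADAM15 was already above that of ADAM10 under siNC, at 29.4 and 23.9. In LM3 siNC replicate 1 ADAM15 was the lower, at 24.51 against 26.39. The sum of 3 listed TIMP genes was 339.9 ± 4.29 in HepG2 siNC and 398.2 ± 10.8 in HepG2 siFASRL, and 499.8 ± 18 and 401.1 ± 16.5 in LM3 (SD, n = 3). TIMP1 held between 73.8% and 87.8% of it in all 4 groups.

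**Figure D3:**
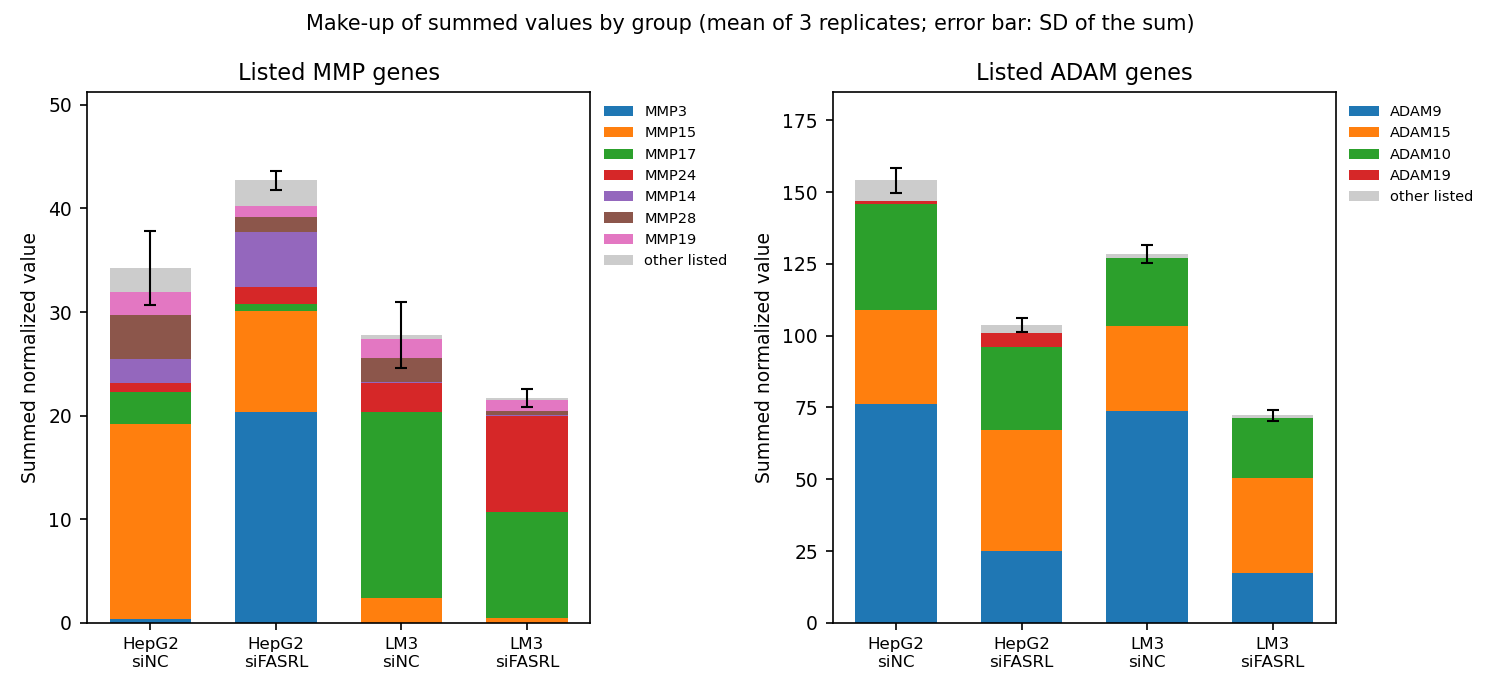
Summed normalized values (vertical axis) of 10 listed MMP genes (left) and 9 listed ADAM genes (right) in the 4 groups, split by gene, as means of 3 replicates with the SD of the sum as error bar. MMP3 takes up 47.7% of the HepG2 siFASRL bar, and the ADAM9 segment is smaller under siFASRL in both lines.

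Genes related to these enzymes were examined in 7 fixed lists of 127 genes, of which 72 were listed. The lists were chosen with earlier results of these data known. Shares over all genes are therefore given as background, and no excess of the lists is read from them in either line. After knockdown in HepG2, 62 of them were tested, 9 rose and 11 fell, and 42 were not past the threshold. Of these, 1 of the 9 (ADAMTS5) and 1 of the 11 (MMP17) reached a value of 1 in a single group and so had to differ. The median log2 fold change was 0.14, against 0.10 over all genes tested. Over all genes, 3.61% rose (294 of 8144) and 6.79% fell (553). Quantile normalization gave 445 and 496 genes over the whole table. An adjusted p under 0.05 alone was met by 60 of the 62 and by 7257 of all 8144, so the fold threshold set most of the calls. How the listed genes were chosen is not stated, and the shares hold for that list alone.

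Of 24 shed substrates tested in HepG2, 5 rose and 2 fell. EREG, AREG and NRG1, which encode growth factors released from membrane precursors, were among the 5. EREG was 3.52, 3.18 and 3.62 under siNC and 15.76, 17.55 and 18.33 under siFASRL, a log2 fold change of 2.04 (SE 0.070, limma adjusted p = 2.85e-08). AREG had means of 5.89 and 24.0 with a log2 fold change of 1.85, and NRG1 had means of 1.84 and 7.21 with a log2 fold change of 1.53. CX3CL1, a chemokine anchored in the membrane, fell from 15.01, 14.95 and 13.40 to 2.85, 2.74 and 3.03, with a log2 fold change of -1.995 (SE 0.063, limma adjusted p = 2.41e-08). CDH1, or E-cadherin, fell from a mean of 7.69 to 1.99, with a log2 fold change of -1.54. In all 5 genes the 3 siFASRL libraries lay on the same side of the siNC libraries, beside 89.6% of all genes tested without overlap (7295 of 8144). The 5 genes were named for their large changes, so this adds no support.

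In the plasmin system, whose proteases activate MMP precursors, 1 of 8 genes tested in HepG2 rose and 3 fell. SERPINE2, an inhibitor of plasminogen activators and thrombin, rose from 15.30, 14.58 and 15.22 to 42.89, 43.36 and 41.84, with a log2 fold change of 1.45 (SE 0.053, limma adjusted p = 3.83e-08). SERPINF2, the plasmin inhibitor made by hepatocytes, fell from 68.28, 77.63 and 67.24 to 16.53, 16.15 and 16.96, with a log2 fold change of -2.04 (SE 0.067, limma adjusted p = 2.60e-08). HPN, or hepsin, a membrane serine protease of hepatocytes, fell from a mean of 15.3 to 5.57, with a log2 fold change of -1.31. These falls stand beside the lower hepatocyte marker sum of HepG2 siFASRL given above, whose part in them was not tested.

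Among other inhibitors tested in HepG2, 1 of 4 fell and none rose at the threshold by limma, where 3 of the 4 had an adjusted p under 0.05. That gene was A2M, a plasma protein that traps many proteases, with means of 279 and 113 and a log2 fold change of -1.30 (SE 0.065, limma adjusted p = 1.71e-07). Of 3 ADAMTS genes tested, which are secreted relatives of the ADAMs, 2 rose, but ADAMTS5 passed the filter only through siFASRL and had to rise. ADAMTS10 went the other way, from a mean of 3.55 to 1.35, with a log2 fold change of -0.96 that was short of the threshold. ADAMTS6, ADAMTS7 and ADAMTS13 did not pass the filter, and their siFASRL means were 45.8%, 35.9% and 32.6% of control. ADAMTS1, which cuts proteoglycans, rose from 4.93, 5.37 and 5.0 to 15.08, 14.86 and 15.46, a log2 fold change of 1.40 (SE 0.055, limma adjusted p = 5.26e-08). Of 13 genes for maturation and partners of the proteases, 3 fell, among them TSPAN15, a tetraspanin that binds ADAM10, from a mean of 5.10 to 1.49 with a log2 fold change of -1.29.

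Of 5 other MMP genes tested in HepG2, MMP17 and MMP28 fell and none rose. MMP17 was 2.18, 4.07 and 2.89 under siNC and 0.49, 0.67 and 0.79 under siFASRL, a log2 fold change of -1.27 (SE 0.15, limma adjusted p = 2.61e-05), and it passed the filter only through siNC, which fixed the direction. MMP28, a secreted MMP, had means of 4.22 and 1.45 and a log2 fold change of -1.10. Both fell short of the threshold under quantile normalization, with -0.97 for MMP17 and -0.91 for MMP28. MMP19, MMP23B and MMP24 were not past the threshold, with log2 fold changes of -0.62, -0.51 and 0.46.

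Of 5 other ADAM genes tested in HepG2, ADAM19 rose from 1.46, 1.36 and 1.11 to 4.75, 4.76 and 4.45, a log2 fold change of 1.29 (SE 0.068, limma adjusted p = 2.19e-07). ADAM15, ADAM11, ADAM22 and ADAM33 were not past the threshold, with log2 fold changes of 0.35, -0.48, -0.77 and -0.88. With a pseudocount of 0.1, ADAM22 and ADAM33 reached -1.22 and -1.32 and passed it. Of the list genes past the threshold in HepG2, 6 were singled out after their values were seen, with log2 fold changes of 1.38 (HBEGF), 1.35 (SDC4), 1.05 (ADAMTS5, which had to rise), -1.17 (PDIA6), -1.16 (SPINT1) and -1.06 (FRMD8).

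In LM3, 50 of the list genes were tested, 3 rose and 7 fell, with a median log2 fold change of -0.32 against -0.06 over all genes tested. Over all genes, 1.42% rose (106 of 7483) and 6.2% fell (464), and quantile normalization gave 109 and 206. Under that scaling the list genes past the threshold went from 10 to 5. An adjusted p under 0.05 alone was met by 42 of the 50 and by 5790 of all 7483.

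MMP24 rose in LM3 from 2.24, 2.97 and 2.93 to 9.0, 9.61 and 9.26, a log2 fold change of 1.48 (SE 0.082, limma adjusted p = 1.38e-06). MMP28 fell from a mean of 2.32 to 0.420, a log2 fold change of -1.23, but it passed the filter only through siNC and had to differ. MMP17 and MMP19 were not past the threshold with -0.75 and -0.51. TIMP4, a TIMP of low level here, fell from 4.09, 4.81 and 5.07 to 1.09, 0.97 and 1.49, a log2 fold change of -1.38 (SE 0.099, limma adjusted p = 4.65e-06). ADAM15, the only other ADAM gene tested in LM3, had a log2 fold change of 0.18 and was not past the threshold. Under quantile normalization MMP28 and TIMP4 fell short of the threshold, with -0.77 and -0.84.

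Genes of the plasmin system were also past the threshold in LM3. SERPINE2 rose from a mean of 6.44 to 15.2, with a log2 fold change of 1.12. ST14, or matriptase, a membrane serine protease, fell from 6.08, 7.03 and 6.81 to 1.78, 1.59 and 1.56, a log2 fold change of -1.53 (SE 0.064, limma adjusted p = 4.19e-07). In HepG2 its means were 1.48 and 0.300 and it passed the filter only through siNC. Its log2 fold change there was -0.93, short of the threshold, and -1.98 with a pseudocount of 0.1, past it.

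Of 18 shed substrates tested in LM3, NOTCH3 and SDC1 fell and none rose, and SDC1 passed the filter only through siNC, so it had to differ. NOTCH3, a receptor cut by ADAM10, fell from 7.85, 9.07 and 9.01 to 1.91, 1.73 and 1.71, a log2 fold change of -1.79 (SE 0.066, limma adjusted p = 2.56e-07). SDC1, a cell surface proteoglycan, had means of 1.88 and 0.410 and a log2 fold change of -1.03, which was -0.99 with median-of-ratios scaling, -0.61 with quantile normalization and -0.996 without LM3 siFASRL replicate 3. Of 13 maturation and partner genes tested in LM3, 2 fell, and both encode tetraspanins that bind ADAM10. TSPAN15 had means of 4.58 and 0.937 with a log2 fold change of -1.53, and TSPAN33 had means of 5.87 and 1.93 with -1.23. Under quantile normalization these were -0.98 and -0.77, short of the threshold. None of 5 ADAMTS genes tested was past the threshold by limma, while 4 of the 5 had an adjusted p under 0.05.

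**Figure D4:**
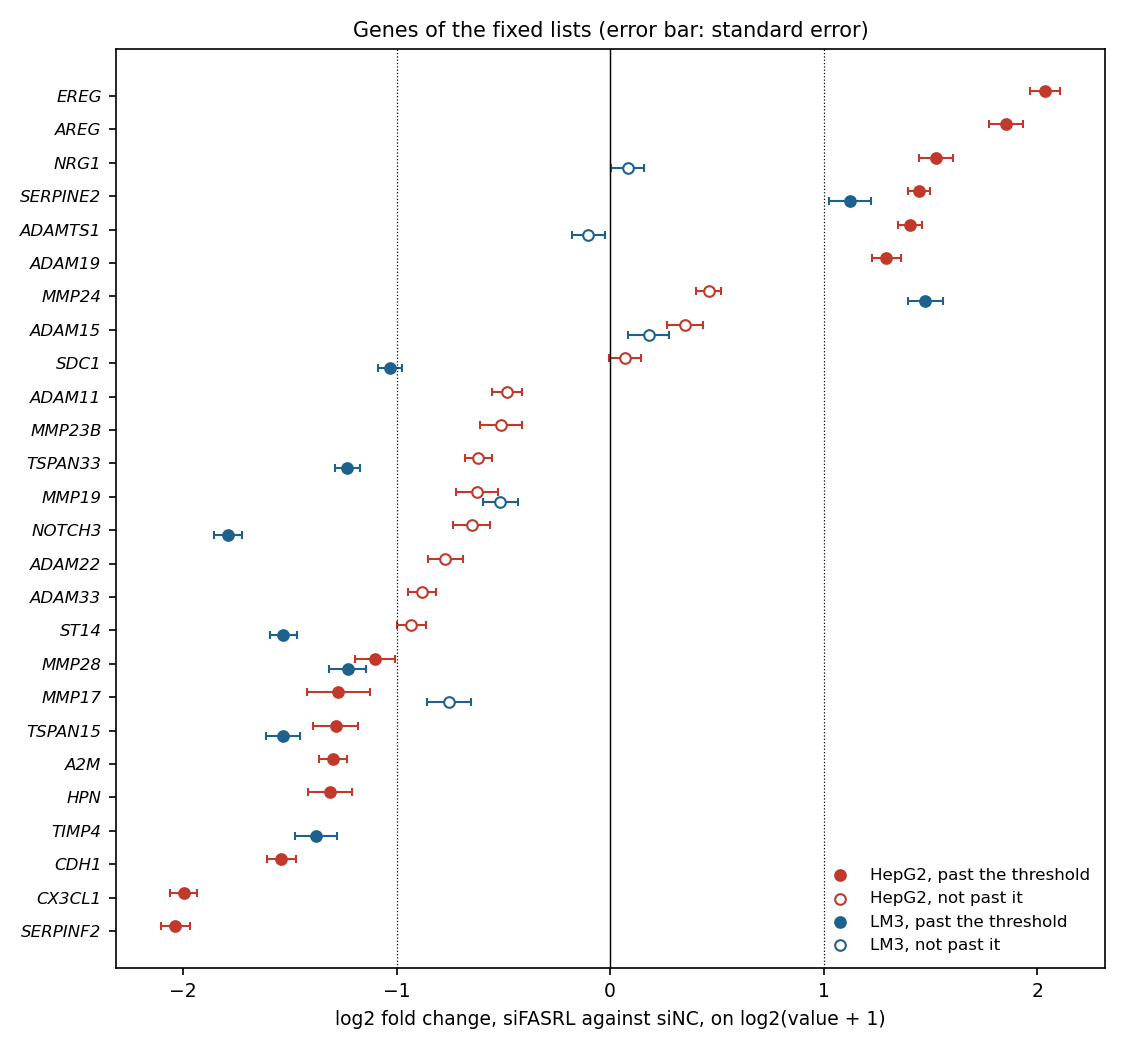
Log2 fold change of siFASRL against siNC on log2(value + 1) (horizontal axis) with its standard error for genes of the fixed lists in HepG2 (red) and LM3 (blue), filled where past the threshold and open where not, with dotted lines at -1 and 1. EREG has the highest value in HepG2 (2.04), SERPINF2 the lowest (-2.04), and genes that did not pass the filter in a line have no point there.

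The difference between the lines in the effect of knockdown was tested as an interaction. It was past the threshold for 17 of 66 list genes, beside 4.84% of all genes (401 of 8285), with 6 higher in LM3 and 11 lower. The median difference was -0.21 for the lists and -0.05 over all genes. Since the lists were chosen with earlier results of these data known, no excess over all genes is read from these values. EREG and AREG had LM3 minus HepG2 differences of -2.14 (SE 0.092, limma adjusted p = 3.68e-09) and -1.91 (SE 0.13, limma adjusted p = 1.23e-07), and both were at 0.52 or less in every LM3 library. CX3CL1 and SERPINF2 had differences of 1.96 and 1.80 and were likewise near 0 in LM3, with at most 0.04 and 0.40. In these 4 genes the difference comes from the HepG2 values. Singled out after their values were seen, PLAU, SPOCK2, SDC4 and HBEGF had differences of -1.55, -1.45, -1.12 and -1.10.

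Some genes with levels above 1 under siNC in both lines also differed. NOTCH3 fell further in LM3, with a difference of -1.14 (SE 0.11, limma adjusted p = 3.95e-06), which was -0.95 under quantile normalization. For NRG1 and ADAMTS1, which rose in HepG2 and were not past the threshold in LM3, the differences were -1.44 and -1.505. MMP24, which had a lower HepG2 siNC mean of 0.917 and was past the threshold only in LM3, had a difference of 1.02, short of the threshold at 0.97 with a pseudocount of 0.1 and at 0.77 under quantile normalization. It was also short of it without HepG2 siFASRL replicate 3 (0.99), HepG2 siNC replicate 3 (0.98), LM3 siFASRL replicate 2 (0.99) or LM3 siNC replicate 1 (0.92). SERPINE2, which rose in both lines, had a difference of -0.32 and was not past the threshold. TSPAN15, which fell in both, had -0.25 and was not past it either.

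The listed genes with the profile most like that of MMP3 were sought over the 12 libraries by the root mean square difference of log2(value + 1), centered on each gene's mean, among 8285 genes. They were TFF1 (0.474), KRT37 (0.588), MT2A (0.629), AKAP12 (0.665) and CD79A (0.686). TFF1 had means of 1.47 in HepG2 siNC, 15.6 in HepG2 siFASRL and 0.237 in LM3 siNC, and it was listed at 0 in LM3 siFASRL. For ADAM9 the nearest genes were TSPAN13 (0.128), KDELR3 (0.139), DPYSL2 (0.145), PIM2 (0.179) and ALPG (0.196). All of these distances were smaller than those for MMP3, whose matches were thus less close. KDELR3 had means of 30.2 and 8.41 in HepG2 and 30.0 and 7.60 in LM3, under siNC and siFASRL respectively.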

How the data were processed

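RNA-seq libraries of HepG2 and LM3 with siFASRL or siNC were grouped by their labels. The authors filtered the reads, aligned them with HISAT2 and Bowtie2 and computed expression with RSEM, and the deposited values are normalized expression values, other than counts, whose unit (FPKM or TPM) is not stated. The labels name hg19, whereas the chromosome accessions given with the values belong to GRCh38. Gene ID matched 8790 of the listed genes to RefSeq (GRCh38.p14), and 17 altered symbols were restored by it. Another 6 columns in the table of HepG2 siFASRL replicate 3 repeat LM3 values and were not used. Whether the counting used strand is not given in the sources used here.

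Fold changes are on log2(value + 1), which understates the change of low genes, and a gene was tested when 3 or more libraries of the fit reached 1. limma (3.58.1, R 4.3.3) was fitted to the libraries of each comparison, and to all 12 for the interaction, with Benjamini-Hochberg adjustment over all genes tested. The threshold was an adjusted p under 0.05 and a change of 1 or more in log2 units. The members and lists were chosen with earlier results of these data known. Named list genes were each of RECK and the MMP, ADAM and TIMP genes that passed the filter in a line and, of the others, the 5 per direction and line with the largest change past the threshold, not all of which are described. The plan named promoters of MMP1, MMP3 and MMP10 and protein motifs. Since MMP1 and MMP3 had no entry, promoters of other listed genes were shown instead, and the GC box was added after the data were seen. Protein sequences were not analysed here. Whether the replicates of these libraries were separate cultures is not stated, so p-values measure the spread between these libraries, which may be technical. Alternatives were the pseudocount, the filter, 2 scalings, the replicate block, a joint fit, the fold threshold and leaving out each replicate. Tables and figures were made with pandas (2.3.3) and matplotlib (3.10.9) in Python (3.11.15).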

Additional observations from a re-analysis of the deposited data

Results flagged for a closer look

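The effect of knockdown differed between the lines for 17 of 66 list genes by the interaction test (limma, adjusted p under 0.05 and a difference of at least 1), beside 4.84% of all genes (401 of 8285). The lists were chosen with earlier results of these data known, so no excess is read from these shares. Of the 17, 13 are taken by the naming rule, which picks genes with a large change in a line and so favors such a difference, and the others are PLAU (-1.55), SPOCK2 (-1.45), SDC4 (-1.12) and HBEGF (-1.10). Each value is the effect in LM3 less that in HepG2, on the log2(value + 1) scale. Of the 13, effects that were lower in LM3 were those of EREG (-2.14), AREG (-1.91), ADAMTS1 (-1.505), NRG1 (-1.44), ADAM19 (-1.30), NOTCH3 (-1.14) and SDC1 (-1.10). Effects that were higher in LM3 were those of CX3CL1 (1.96), SERPINF2 (1.80), CDH1 (1.47), HPN (1.26), A2M (1.15) and MMP24 (1.02).

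Of these, ADAM19, EREG, AREG, CX3CL1, SERPINF2, CDH1, HPN and A2M were under 1 in every LM3 library. With a pseudocount of 0.1 the difference for A2M was 0.60 and was no longer past the threshold. The same was true under quantile normalization for MMP24 (0.77), NOTCH3 (-0.95) and SDC1 (-0.58).

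For MMP3 (-3.99) and TIMP1 (-0.53) each siFASRL replicate lay above the siNC mean in HepG2 and below it in LM3. These differences were not tested. For MMP3 in LM3 this means values listed at 0 against a siNC mean of 0.017, and for TIMP1 the LM3 groups overlapped.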

How the results depend on the processing

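The list genes past the threshold were 20 in HepG2, 10 in LM3 and 17 for the interaction, and 2 members were past it between the lines under siNC. With the adjusted p alone these became 60, 42, 47 and 5. Under quantile normalization the LM3 count was 5 and the count between the lines was 1, since MMP14 was at -0.86, and the cause was not tested. Leaving out each replicate in turn gave 18 to 20, 8 to 10, 16 to 18 and 1 to 2. The count between the lines was 1 without HepG2 siNC replicate 1, 2 or 3, because MMP14 then had too few libraries to pass the filter. The pseudocount of 0.1, the missing filter, median-of-ratios scaling and the joint fit kept all counts within 1.5 times.

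Same-numbered libraries did not deviate together in all pairs (correlations of deviations across genes of 0.319, 0.371 and -0.2 in HepG2 and -0.0801, 0.118 and -0.175 in LM3), so the numbers were not taken as pairs. With the replicate block the counts were 20, 10, 17 and 2, in the same order.

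Of the tested effects of single genes, 963 alternative values kept their side of the threshold, 19 lost it (11 under quantile normalization, 5 with a replicate left out, 2 with the pseudocount of 0.1 and 1 with median-of-ratios scaling) and 7 gained it (6 with the pseudocount of 0.1 and 1 with a replicate left out). The interaction of MMP24 was among the losses, at 0.97 with the pseudocount of 0.1, 0.77 under quantile normalization and 0.99 without HepG2 siFASRL replicate 3, 0.98 without HepG2 siNC replicate 3, 0.99 without LM3 siFASRL replicate 2 and 0.92 without LM3 siNC replicate 1. Of the untested knockdown effects of members, 30 alternative values moved by more than the replicate spread and 245 did not, and the sign turned for the interaction of MMP15 under quantile normalization. The depth is unknown, so no detection limit is given for values near 0.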
